A study of Mus musculus with 6 samples.

Results

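Glucose transporters and enzymes of glycolysis were followed in epididymal white fat of mice that express nuclear SREBP-1c in fat cells. The 10 genes, of 18194 gene symbols on the array, were Slc2a1, Slc2a3, Slc2a4, Hk1, Hk2, Pfkfb3, Pfkp, Aldoa, Ldha and Ldhb. They were taken by name, and each was read through every probe set that the array annotation pairs with that single symbol, which gave 27 probe sets. There was 1 further probe set that names a member together with another gene, which was not used. Of the 27, 25 passed the filter on dim signals and were tested, and all 10 genes kept at least 1.

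The first group was 3 male aP2-nSREBP1c transgenic mice and the second 3 wild type males described as litter-matched, all 10 weeks old and on a C57BL6;SJL background. The transgene expresses the nuclear, active form of the lipid synthesis factor SREBP-1c from the aP2 (Fabp4) promoter, which works in fat cells and also in macrophages, and the labels call the mice lipodystrophic. Strain labels spell the transgene in a different way on each of the 3 transgenic arrays (aP2-nSrebp1c, aP2-nSrebp1 and aP2-SREBP1c), whereas the titles agree. RNA of whole pads was hybridised to 1 Affymetrix array per mouse, and the number of mice limits the precision. Values are MAS5 signals, a linear brightness per probe set with no detection call.

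Glucose enters a fat cell through facilitative transporters of the SLC2A (GLUT) family. Slc2a4 encodes GLUT4, which insulin brings to the surface of fat and muscle cells, and Slc2a1 and Slc2a3 encode GLUT1 and GLUT3, which do not need insulin. Hexokinases trap the sugar as glucose 6-phosphate, phosphofructokinase commits it to glycolysis, aldolase splits the 6-carbon chain and lactate dehydrogenase interconverts pyruvate and lactate. In white fat this route supplies the glycerol backbone and the acetyl units of stored triglyceride, and fat cells release much of the glucose they take up as lactate.

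Across the 10 genes, each read through its brightest probe set, the mRNAs of GLUT3, GLUT4, hexokinase 2, the regulator PFKFB3 and lactate dehydrogenase A had lower signals in all 3 transgenic pads than in any wild type pad, while that of hexokinase 1 was higher in all 3. Of the 25 probe sets, 6 were higher and 7 lower without overlap between the groups, where 11.9% and 15.3% of all tested probe sets were and 27.2% in either direction. With all 6 arrays, 2 of the 25 passed an adjusted p of 0.05 in limma's moderated test, 1 for Pfkfb3 and 1 for Slc2a3. Both fell. Of all 27023 tested probe sets, 2.97% passed, 1.3% lower and 1.67% higher. With transgenic replicate 2 left out, 6 of the 25 fell and 4 rose, where 13.2% of all probe sets passed, 6.23% lower and 6.96% higher. By gene, read through the brightest probe set, 1 of 10 fell with all arrays and 5 fell without transgenic replicate 2, and 0 rose in both. Of all tested genes 3.77% and 15.4% passed. At an unadjusted p under 0.05 in limma, 1 and 2 of the 10 were higher and 5 and 6 lower. Of all 13112 tested genes, 1238 and 2012 were higher and 1174 and 1835 lower at that p. The groups did not overlap in 6 of the 10 genes, 1 higher and 5 lower, and in 30.4% of all genes. The median log2 fold change of the 25 was −0.37, against −0.09 for all tested probe sets, and without transgenic replicate 2 it was 0.26, against 0.03.

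Transgenic replicate 2 carried signs of shortened RNA, and results are given with and without it. Its 3′ over 5′ signal ratio was 122 for the beta-actin control, against 1.11 to 1.81 on the other 5 arrays. For the Gapdh control it was 55.9, against 0.77 to 1.22 on the other 5. Another control, pyruvate carboxylase (Pcx), split the arrays differently: its ratio was 3.10 in transgenic replicate 1 and 3.06 in wild type replicate 3, and between 14.1 and 52.0 on the other 4. On log2(signal + 16), 7 of the 25 member probe sets were more than 1 lower in transgenic replicate 2 than in the mean of the other transgenic arrays and 2 were more than 1 higher, where 28.0% and 3.25% of all tested probe sets were. As checks of the labels, Srebf1 rose (log2 fold change 1.08, adjusted p = 0.0342), but this signal may include transgene RNA, which was not tested. Fabp4 was bright in every pad, at 13343 ± 477 in transgenic and 13343 ± 888 in wild type fat (SD, n = 3 each). These values are near the highest signal on any array, 15132.7, where differences may be compressed, which was not tested. Adipoq, which encodes adiponectin, fell (−0.93, adjusted p = 0.0448). The calls of Srebf1 and Adipoq were kept without transgenic replicate 1 or 2 and lost without transgenic replicate 3 (0.118 for Srebf1 and 0.105 for Adipoq) and without any 1 wild type array (0.168 to 0.188 for Srebf1 and 0.195 to 0.217 for Adipoq).

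Markers of several cell types also differed between the genotypes. The summed signal of 5 fat cell markers was 28282 to 36799 on transgenic arrays and 48811 to 54858 on wild type arrays, and 1 of them fell with all arrays and 3 fell without transgenic replicate 2. That of 7 macrophage markers was 23264 to 31393 on transgenic and 13252 to 16236 on wild type arrays, and 1 of the 7 rose, or 4 without transgenic replicate 2. For 6 endothelial markers the sums were 1766 to 4963 on transgenic and 6886 to 8079 on wild type arrays, and 0 passed with all arrays in limma (4 fell without transgenic replicate 2). No marker of these 3 lists was at 0 in either group. The sums of 5 platelet markers were 3012 to 4670 in transgenic and 2275 to 2568 in wild type fat, and 1 of them, Gp1bb, rose (log2 fold change 4.02, adjusted p = 0.00324). Gp1bb read 979.5, 585.7 and 1202.2 in transgenic pads and 52.6, 39.8 and 29.0 in wild type pads. In the other platelet markers, Pf4, Ppbp, Itga2b and Gp9, the groups overlapped. The sums of 3 red cell markers were 234.1 to 537.8 in transgenic and 690.3 to 896.6 in wild type fat. With all arrays 0 passed in limma (1, Alas2, fell without transgenic replicate 2). Alas2 read 155.6 to 430.0 in transgenic and 633.3 to 799.3 in wild type pads. Hba-a1 and Slc4a1 overlapped between the groups, with log2 fold changes of 0.32 and 0.33. Both were dim, at 22.9 to 54.1 and 18.3 to 66.3 over all arrays. Sums of 4 markers of the adjoining epididymis overlapped, at 86.5 to 147.7 in transgenic and 103.5 to 149.9 in wild type fat. In whole pads, fewer cells of a type and less RNA per cell cannot be told apart, and the part that this shift in markers has in the results on the 10 genes was not tested.

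**Figure D1:**
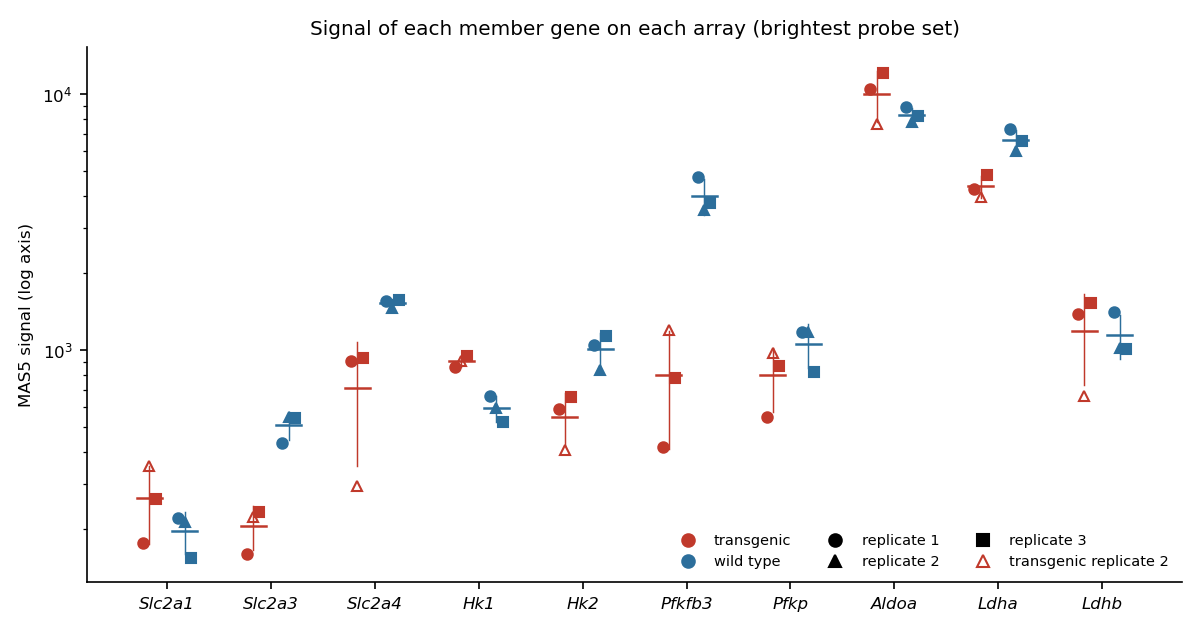
MAS5 signal (log axis) of the brightest probe set of each of the 10 genes on each array, transgenic left and wild type right, with a bar at the group mean and a line of 1 SD on either side (n = 3). The open triangle is transgenic replicate 2. Pfkfb3 lies at 421.1 to 1199 in transgenic and 3523.8 to 4770.1 in wild type fat.

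Because the members that were lower and higher include isoforms of 1 step, the promoters of Pfkfb3, Hk2, Hk1, Ldha and Ldhb are shown, from RefSeq on GRCm38.p6, 250 bases before to 50 after an annotated start, 5′ to 3′. Capitals mark ACGTG on either strand, the core letters of hypoxia response elements, which are part of the E-box CACGTG bound by factors such as USF and SREBP.
Pfkfb3 upstream start, chr2:11553880-11554179, minus strand: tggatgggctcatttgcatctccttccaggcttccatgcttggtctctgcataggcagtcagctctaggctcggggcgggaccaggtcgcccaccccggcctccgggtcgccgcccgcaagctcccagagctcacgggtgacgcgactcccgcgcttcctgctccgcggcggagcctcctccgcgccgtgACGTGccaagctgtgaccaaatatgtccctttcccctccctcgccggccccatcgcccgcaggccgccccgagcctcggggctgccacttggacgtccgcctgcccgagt
Pfkfb3 downstream start, chr2:11502041-11502340, minus strand: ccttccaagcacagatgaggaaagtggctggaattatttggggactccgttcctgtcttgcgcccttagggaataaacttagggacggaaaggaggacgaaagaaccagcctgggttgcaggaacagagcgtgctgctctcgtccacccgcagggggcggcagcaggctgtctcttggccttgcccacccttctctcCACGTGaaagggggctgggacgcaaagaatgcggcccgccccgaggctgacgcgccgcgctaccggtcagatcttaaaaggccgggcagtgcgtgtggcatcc
Hk2, chr6:82774405-82774704, minus strand: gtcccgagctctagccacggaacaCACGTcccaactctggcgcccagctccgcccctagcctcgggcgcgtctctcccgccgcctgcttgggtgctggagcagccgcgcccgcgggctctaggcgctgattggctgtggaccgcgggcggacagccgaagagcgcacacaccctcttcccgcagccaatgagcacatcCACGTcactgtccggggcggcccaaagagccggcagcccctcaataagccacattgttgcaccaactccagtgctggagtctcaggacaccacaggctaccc
Hk1, chr10:62340372-62340671, minus strand: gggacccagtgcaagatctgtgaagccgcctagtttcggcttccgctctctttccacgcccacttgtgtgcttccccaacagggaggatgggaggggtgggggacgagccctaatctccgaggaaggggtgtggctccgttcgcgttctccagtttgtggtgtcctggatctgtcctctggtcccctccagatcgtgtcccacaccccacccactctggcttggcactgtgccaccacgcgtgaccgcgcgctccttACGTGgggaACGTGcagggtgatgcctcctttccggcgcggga
Ldha, chr7:46845554-46845853, plus strand: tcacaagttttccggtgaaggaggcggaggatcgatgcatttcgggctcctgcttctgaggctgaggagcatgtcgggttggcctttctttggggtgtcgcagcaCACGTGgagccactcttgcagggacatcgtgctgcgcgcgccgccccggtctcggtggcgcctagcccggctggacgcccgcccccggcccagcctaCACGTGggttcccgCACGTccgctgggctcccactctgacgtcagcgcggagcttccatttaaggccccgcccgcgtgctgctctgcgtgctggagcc
Ldhb, chr6:142507908-142508207, minus strand: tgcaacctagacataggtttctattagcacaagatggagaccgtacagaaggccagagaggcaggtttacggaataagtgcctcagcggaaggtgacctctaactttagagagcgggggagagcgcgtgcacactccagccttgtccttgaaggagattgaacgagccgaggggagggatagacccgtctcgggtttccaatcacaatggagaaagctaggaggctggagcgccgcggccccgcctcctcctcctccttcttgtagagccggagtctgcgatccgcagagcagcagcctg

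Windows were found for 8 of the 10 genes, 13 windows in all, and Slc2a3 and Slc2a4 are not among them. ACGTG was in 8 of these 13 windows, against 19.6% of all 32851 promoter windows and 24.6% of the 13498 windows of tested genes. CACGTG, which contains it, was in 2 of the 13, the downstream Pfkfb3 window and the Ldha window shown. The share was 7.15% of all windows and 9.39% of those of tested genes. The sterol response element TCACNCCAC, searched on both strands as well, was in 0 of the 13, in 1.24% of all and in 1.17% of those of tested genes. The Ldha window shown held 5 matches of ACGTG over both strands, where each of its 2 CACGTG sites was counted once on either strand. The other Ldha window, chr7:46846832-46847131, held 0. The Hk1 window shown held 2, and the other Hk1 window, chr10:62379859-62380158, held 0. The single windows of Hk2 and Ldhb held 2 and 0. Windows of 1 gene can overlap, as a pair of the Aldoa windows does. Both windows of that pair hold the same ACGTG site and both are counted among the 8. A match describes the letters only.

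Among the transporters, Slc2a4 had lower signal in every transgenic pad by its brighter probe set. Probe set 1415958_at read 912.3, 296.4 and 937.5 in transgenic replicates 1 to 3, against 1561.3, 1466.1 and 1567.9 in the wild type replicates. Its groups did not overlap, and the lowest value was that of transgenic replicate 2. The log2 fold change was −1.25 (SE 0.45), with an adjusted p of 0.236. Leaving that array out, it fell by 0.72 (SE 0.15) with an adjusted p of 0.015, and this p ran from 0.00404 to 0.551 over the alternatives. The other probe set of Slc2a4, 1415959_at, read 1038.2, 4.1 and 267.8 on the transgenic arrays and 891.3, 1124.8 and 2001.2 on the wild type arrays. Here the groups overlapped, and in each genotype the highest value was on the array with the lowest Pcx ratio. Compared only within those arrays, transgenic replicate 1 was 0.94 below wild type replicate 3 on the log2 scale, close to the difference of −0.77 that 1415958_at gave there.

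Slc2a3 signal was lower in every transgenic pad by both of its tested probe sets, 2.39-fold and 2.53-fold on signal + 16. Probe set 1437052_s_at read 159.7, 223.3 and 234.4 in transgenic pads and 436, 551.4 and 545.2 in wild type pads, and 1455898_x_at read 83.3, 100.9 and 63.2 in transgenic pads and 210.6, 248.5 and 231.8 in wild type pads. Every transgenic value lay below every wild type value, that of transgenic replicate 2 included. The log2 fold changes were −1.26 (SE 0.26, adjusted p = 0.0572) and −1.34 (SE 0.24, adjusted p = 0.0371), so that 1 of the 2 passed the threshold. With transgenic replicate 2 left out both passed, and 1437052_s_at fell by 1.32 (adjusted p = 0.00403) and 1455898_x_at fell by 1.47 (adjusted p = 0.00157), with ranges of 0.00348 to 0.311 and 0.00118 to 0.22 over the alternatives. The call of 1455898_x_at was lost without transgenic replicate 1 or 3 (adjusted p = 0.079 and 0.113) and without wild type replicate 1, 2 or 3 (0.173, 0.22 and 0.185). It was also lost with no filter on dim probe sets (0.0636), quantile normalization (0.157), median centring (0.118) and the replicate number as a block (0.134). Within the arrays of low and of high Pcx ratio the difference of this probe set was −1.32 and −1.35. The remaining probe sets of Slc2a3, 1421924_at and 1427770_a_at, were under the filter, with signals from 1.5 to 45.5 on every array and overlap between the groups. The suffix x of 1455898_x_at marks probes that can also bind other transcripts, so related sequences may share its signal.

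Slc2a1, the transporter of basal uptake, showed no change past the test in any of its 3 probe sets. The brightest, 1434773_a_at, averaged 264 ± 88.4 in transgenic fat and 196 ± 36.6 in wild type fat (SD, n = 3 each), with overlap. This gave 0.36 (SE 0.32, adjusted p = 0.597) as log2 fold change. The others had 0.23 (SE 0.27) for 1426599_a_at and −0.37 (SE 0.47) for 1426600_at, which read 48.5 in transgenic replicate 2 and 143.6 to 199.5 on the other 5 arrays, and 0.17 without it.

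The hexokinase genes lay on opposite sides. Hexokinase 2 is the isoform of insulin-sensitive tissues, whereas hexokinase 1 is found in most cells. Hk2 (1422612_at) read 588.2, 408.1 and 656.5 in transgenic pads and 1050.5, 841.1 and 1142.4 in wild type pads, without overlap. The difference of −0.87 (log2, SE 0.27) had an adjusted p of 0.175. Leaving out transgenic replicate 2, Hk2 fell by 0.68 (SE 0.19) at an adjusted p of 0.0461, a p that ran from 0.019 to 0.546 over the alternatives. Hk1 (1437974_a_at) read 861, 907.2 and 947.2 in transgenic pads and 663, 594.9 and 524.2 in wild type pads. Every transgenic pad was above every wild type pad, and the transgenic values differed little among themselves. The log2 fold change of 0.60 (SE 0.22) did not pass the test, at an adjusted p of 0.241. Leaving out transgenic replicate 2 gave 0.60 (SE 0.18) at an adjusted p of 0.0615, with a range of 0.0209 to 0.644 over the alternatives.

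A dimmer probe set of Hk1 depended on that array. Probe set 1420901_a_at read 348, 1.7 and 246.8 in transgenic replicates 1 to 3 and 134.2, 154 and 214.8 in wild type replicates. With all arrays the log2 fold change was −0.60 (SE 1.08) at an adjusted p of 0.805. It was 0.78 (SE 0.25) at an adjusted p of 0.0752 (range over the alternatives 0.0752 to 0.931) when transgenic replicate 2 was left out, so its sign followed that of the brighter probe set once the array was left out.

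Pfkfb3 signal was lower in every transgenic pad by both of its probe sets, and the brighter one fell. The gene encodes a kinase that makes fructose 2,6-bisphosphate, the strongest activator of phosphofructokinase. Probe set 1416432_at read 421.1, 1199 and 782 in transgenic pads and 4770.1, 3523.8 and 3777.8 in wild type pads. The highest transgenic value, that of transgenic replicate 2, still lay well below the lowest wild type value. The mean was 801 ± 389 in transgenic and 4024 ± 659 in wild type fat (SD, n = 3 each). Pfkfb3 fell by 2.41 (log2, SE 0.38) at an adjusted p of 0.0249, which is 5.33-fold on signal + 16. Leaving out transgenic replicate 2, it fell by 2.76 (SE 0.25) at an adjusted p of 0.000148, and this p ran from 0.000148 to 0.146 over the alternatives. The difference was −3.12 within the arrays of low Pcx ratio and −2.06 within those of high ratio. The call was kept without transgenic replicate 1 (adjusted p = 0.0286) and lost without transgenic replicate 3 (0.0893) and without wild type replicate 1, 2 or 3 (0.146, 0.13 and 0.128). It was also lost with median centring (0.0552) and with the replicate number as a block (0.0614).

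The second probe set of Pfkfb3 also had no overlap. It (1456676_a_at) read 88.7, 28.9 and 45.1 in transgenic pads and 126.4, 123 and 627.3 in wild type pads, with the high value on wild type replicate 3. The log2 fold changes with and without transgenic replicate 2 were −1.82 (SE 0.65) and −1.55 (SE 0.59), at adjusted p of 0.231 and 0.133 (range over the alternatives 0.133 to 0.444).

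Pfkp encodes the platelet type of phosphofructokinase, the enzyme that PFKFB3 regulates. Its main probe set, 1416069_at, averaged 800 ± 223 in transgenic and 1059 ± 207 in wild type fat (SD, n = 3 each) and the groups overlapped. The log2 fold change was −0.42 (SE 0.30) at an adjusted p of 0.533, and −0.58 (SE 0.25) at 0.17 with transgenic replicate 2 left out (range over the alternatives 0.0695 to 0.797). The dimmer 1430634_a_at ran from 6.9 to 194.7 in transgenic and from 6.2 to 427.1 in wild type fat, with overlap. For 1437759_at the log2 fold change was −0.33 (SE 0.37).

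**Figure D2:**
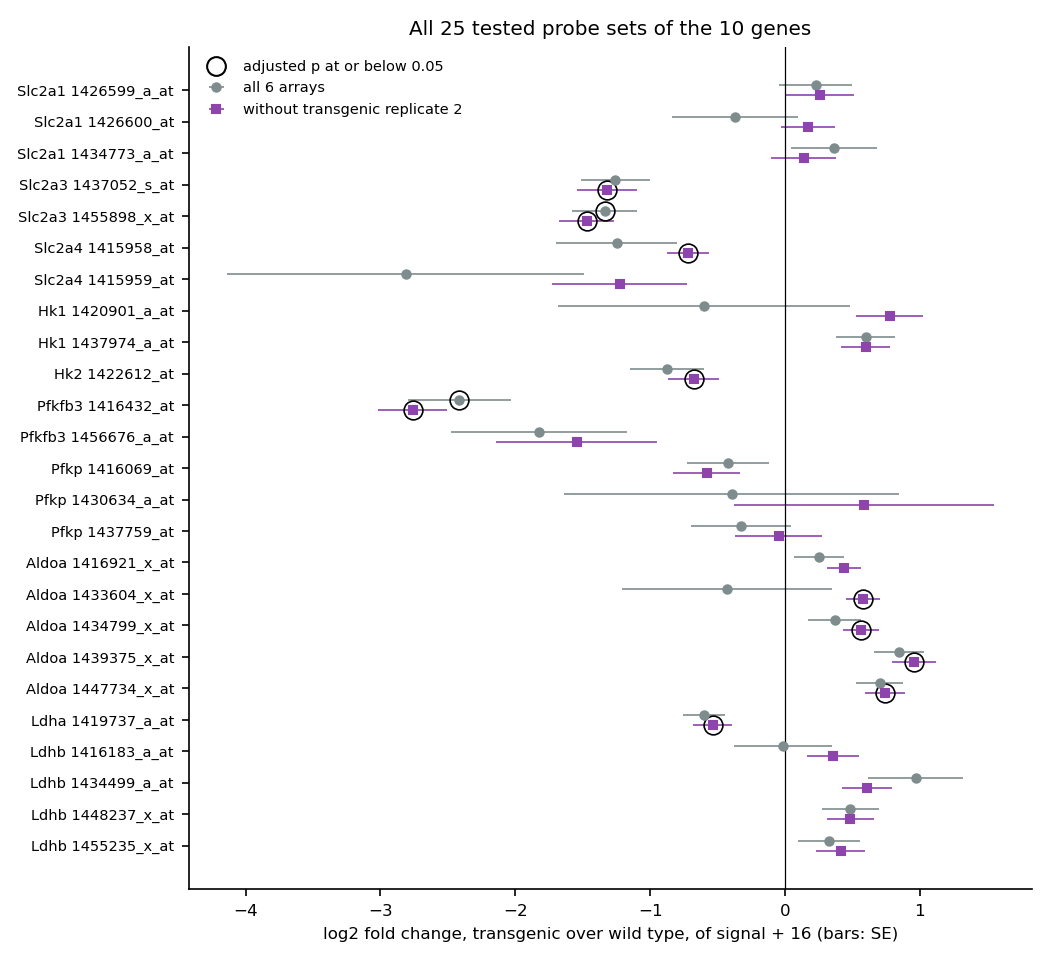
Log2 fold change (transgenic over wild type, signal + 16) with its SE for the 25 tested probe sets, with all 6 arrays (grey circles) and without transgenic replicate 2 (purple squares); rings mark an adjusted p at or below 0.05. With all arrays the rings are on Pfkfb3 1416432_at and Slc2a3 1455898_x_at, and without transgenic replicate 2 there are 6 rings left of 0 and 4, all of Aldoa, right of it.

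Aldoa, which encodes the common aldolase of muscle and most tissues, rose in 4 of its 5 probe sets once transgenic replicate 2 was left out. Probe set 1439375_x_at read 6475.6, 5664 and 7816.2 in transgenic pads and 4285.3, 3452.2 and 3316 in wild type pads, and 1447734_x_at read 2768.5, 2534.8 and 2709 in transgenic pads and 1745.5, 1527.1 and 1634.6 in wild type pads. In both the groups did not overlap. With all arrays the log2 fold changes were 0.85 (SE 0.19) and 0.70 (SE 0.17), at adjusted p of 0.0701 and 0.0988. Without transgenic replicate 2 both rose, by 0.96 (adjusted p = 0.0044) and 0.74 (adjusted p = 0.0109), with ranges of 0.00113 to 0.319 and 0.00892 to 0.437 over the alternatives.

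The other 3 Aldoa probe sets, 1433604_x_at, 1434799_x_at and 1416921_x_at, gave smaller differences. Their log2 fold changes without transgenic replicate 2 were 0.58 (adjusted p = 0.0164), 0.57 (adjusted p = 0.0218) and 0.44 (adjusted p = 0.0548), with ranges over the alternatives of 0.00146 to 0.898, 0.00309 to 0.732 and 0.00613 to 0.787. With all arrays they were −0.43, 0.37 and 0.25. On transgenic arrays 1433604_x_at read 1083.5 in transgenic replicate 2, against 8357.7 and 9420.5 in transgenic replicates 1 and 3. The suffix x marks probe sets with probes that can also bind other transcripts, so related sequences may share these signals. The Ldhb probe sets 1448237_x_at and 1455235_x_at and the Hk3 probe set read below, 1442798_x_at, carry this suffix as well.

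Ldha signal was lower in every transgenic pad, while 3 of the 4 probe sets of Ldhb were higher there. None of them passed with all arrays. Ldha encodes the subunit that predominates in muscle and Ldhb that of heart. Ldha (1419737_a_at) read 4272.6, 3971.3 and 4854.2 in transgenic pads and 7307, 6017.6 and 6572.9 in wild type pads, without overlap. The difference of −0.60 (log2, SE 0.15) had an adjusted p of 0.108. Leaving out transgenic replicate 2, Ldha fell by 0.54 (SE 0.14) at an adjusted p of 0.0365, with a range of 0.0019 to 0.416 over the alternatives. Transgenic replicate 2 lay close to the other transgenic pads, and the difference was −0.62 and −0.59 within the arrays of low and high Pcx ratio.

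Ldhb had 4 tested probe sets, and in 3 of them every transgenic pad was above every wild type pad, as in 11.9% of all tested probe sets. The 4 read the same gene on the same pads, so they are not independent. Probe set 1448237_x_at read 1152, 1195.6 and 1227.5 in transgenic pads and 967.7, 787.5 and 794.3 in wild type pads, with transgenic replicate 2 between the others. The log2 fold change was 0.49 (SE 0.21, adjusted p = 0.315). Those of 1434499_a_at and 1455235_x_at were 0.97 (SE 0.35, adjusted p = 0.24) and 0.33 (SE 0.23, adjusted p = 0.521). The brightest, 1416183_a_at, read 1391.1, 663.2 and 1531.1 in transgenic pads and 1409.7, 1024.3 and 1010 in wild type pads, with −0.01 (SE 0.36, adjusted p = 0.99). Without transgenic replicate 2 all 4 were positive, between 0.36 and 0.61, and the lowest adjusted p was 0.0614 (range over the alternatives 0.0124 to 0.589).

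Differences between related genes were also taken within each array, which removes any factor common to an array, but not one that differs between probe sets. On log2(signal + 16), Hk1 minus Hk2 was 0.54, 1.12 and 0.52 in transgenic pads and −0.65, −0.49 and −1.10 in wild type pads, a difference of 1.47. The groups did not overlap, and the level of one probe set cannot be set against that of another, so the sign within a genotype has no meaning of its own. Pfkfb3 minus Pfkp was −0.37, 0.29 and −0.15 in transgenic pads, against 1.57 to 2.18 with a mean of 1.92 ± 0.32 (SD, n = 3) in wild type pads, so that the ratio was 3.99-fold lower in transgenic fat. Slc2a3 minus Slc2a1 averaged −0.30 ± 0.28 in transgenic and 1.32 ± 0.40 in wild type fat (SD, n = 3 each), and Slc2a1 minus Slc2a4 averaged −1.27 ± 1.33 in transgenic and −2.88 ± 0.29 in wild type fat. Slc2a1 minus Slc2a4 was −2.27, 0.24 and −1.78 in transgenic replicates 1 to 3. Its difference between the groups was 1.61 with all arrays and 0.86 without transgenic replicate 2.

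In these 4 of the 7 pairs the groups did not overlap. Each had a two-sided exact permutation p of 0.1, the smallest that 3 against 3 allows, and 0.175 after adjustment over the 7 pairs. Ldhb minus Ldha differed by 0.59 (exact p = 0.3) and Aldoa minus Pfkp by 0.67 (exact p = 0.2), both with overlap. Slc2a3 minus Slc2a4 differed by −0.01 (exact p = 1), and by −0.60 without transgenic replicate 2. Without that array the groups were apart in all 7 pairs, each at an exact p of 0.2, which 2 against 3 gives here. No share over other gene pairs was computed, so these counts have no background beside them. Every pair but Aldoa minus Pfkp holds a gene whose own groups did not overlap with all arrays, as in 30.4% of all genes. The pairs thus partly restate those genes, and groups come apart more easily with fewer arrays.

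**Figure D3:**
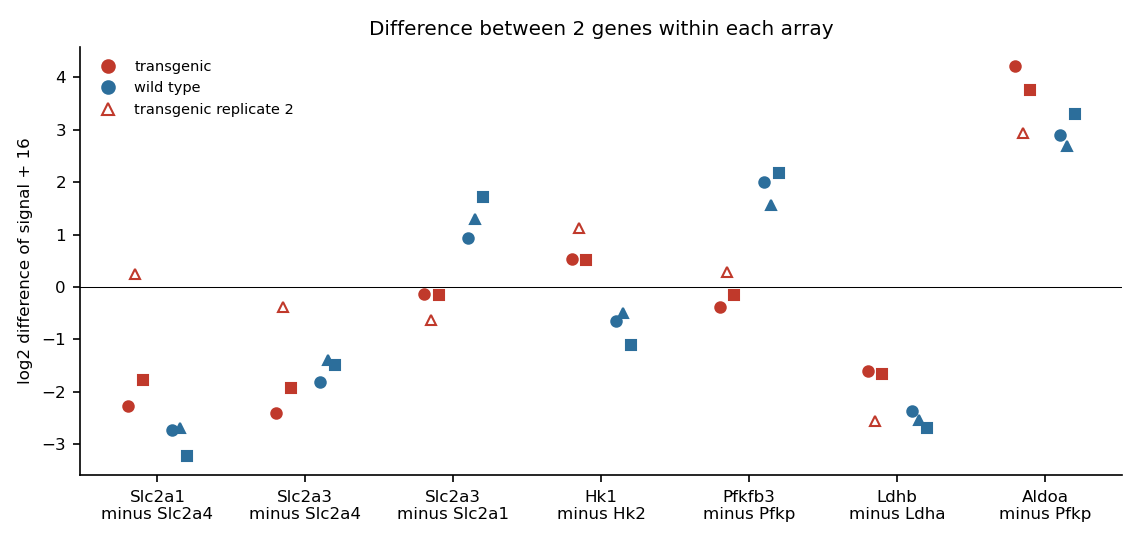
Difference in log2(signal + 16) between 2 genes within each array for 7 pairs (brightest probe sets), transgenic left and wild type right of each pair. The open triangle is transgenic replicate 2. Hk1 minus Hk2 is 0.52 to 1.12 on transgenic arrays and −1.10 to −0.49 on wild type arrays.

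Around the 10 genes, 66 further genes of the route were listed by role, and 52 were tested. Of these 3 rose and 2 fell, against 2.23% and 1.54% of all 13112 tested genes, and 47 did not pass. Leaving out transgenic replicate 2, 8 rose and 5 fell, against 8.04% and 7.33%. Beside each count, the macrophage, fat cell and endothelial marker sums differ between the genotypes as given above. Of the rest, 6 were under the filter, 7 had no probe set with a single symbol and Gapdh had control probe sets only (1 gene).

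Of 19 further enzymes, 3 rose and 0 fell with all arrays, against 2.23% and 1.54% of all genes. Without transgenic replicate 2, 6 rose and 0 fell, against 8.04% and 7.33%. The median log2 fold change was 0.26, and 0.44 without that array, against −0.04 and 0.02 for all genes. Aldoc, the aldolase best known from brain, read 393.7, 817.5 and 703.1 in transgenic pads and 47.2, 53.4 and 42.9 in wild type pads. It rose by 3.30 (SE 0.32, adjusted p = 0.0043), and passed whichever array was left out. Pgam2, the muscle phosphoglycerate mutase, read 206.2, 115.8 and 220.9 in transgenic pads and 5.2, 6.8 and 6.8 in wild type pads. It rose by 3.10 (SE 0.28, adjusted p = 0.00357). Its wild type signals are below the 16 added before the logarithm, and the value was 4.60 with 1 and 1.77 with 64 added. Of 4 tested muscle markers 0 passed the test in limma with all arrays (1 fell without transgenic replicate 2), and the summed signal of 7 skeletal muscle markers was 171.7 to 442.3 in transgenic and 603.8 to 1292.3 in wild type fat. Acta1 carried this gap, since the sums of the other 6 overlapped, at 146.0 to 270.2 in transgenic and 210.4 to 288.4 in wild type fat.

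Hk3, the hexokinase of myeloid cells, read 321, 760.2 and 541.9 in transgenic pads and 49.4, 152.5 and 45.9 in wild type pads. It rose by 2.58 (SE 0.49, adjusted p = 0.0451), a call lost without transgenic replicate 1 or 3 (0.0611 and 0.143) and without wild type replicate 1, 2 or 3 (0.208, 0.0632 and 0.204). The Hk3 call was also lost with no filter (adjusted p = 0.0622), an offset of 1 (0.0589) and median centring (0.0507), and the adjusted p ran from 0.00665 to 0.208 over the alternatives. The summed macrophage markers were higher in the same pads, as were those of 4 neutrophil markers, at 490.0 to 764.4 in transgenic and 144.3 to 240.2 in wild type fat, and their part in it was not tested. Its other tested probe set did not pass with all arrays, and rose by 1.93 without transgenic replicate 2. Pkm, which encodes pyruvate kinase of most tissues, read 5399.3, 1019 and 7058.4 in transgenic and 2755.9, 2408.9 and 2224.8 in wild type pads. It had 0.47 (adjusted p = 0.756), and rose by 1.33 (adjusted p = 0.000902, range over the alternatives 0.000199 to 0.97) without transgenic replicate 2. Pfkfb4, a relative of Pfkfb3, had 0.46 (adjusted p = 0.718), and rose by 1.13 (adjusted p = 0.0122, range 0.00605 to 0.987) without that array, where Pfkfb3 fell.

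Of 17 further genes of glucose uptake, 1 fell and 0 rose, against 1.54% and 2.23% of all genes. Without transgenic replicate 2, 4 fell and 1 rose, against 7.33% and 8.04%. The median log2 fold change was −0.66, and −0.11 without that array, against −0.04 and 0.02 for all genes. Myo1c, a motor protein in the delivery of GLUT4 to the surface, read 1697.7, 1179.7 and 2663.7 in transgenic pads and 5807.2, 5633.6 and 5137.6 in wild type pads. It fell by 1.65 (SE 0.30, adjusted p = 0.0385), lost without transgenic replicate 1 (0.0924) and without wild type replicate 1, 2 or 3 (0.19, 0.202 and 0.165). Its call was also lost with no filter (adjusted p = 0.0593), without the eBayes trend (0.0513) and with the replicate number as a block (0.0869), and the adjusted p ran from 0.000235 to 0.202 over the alternatives. Its other 3 probe sets passed in neither direction with all arrays, and all 3 fell without transgenic replicate 2. Sort1, which encodes sortilin of the GLUT4 vesicle, had −0.84 (adjusted p = 0.134), and fell by 0.68 (adjusted p = 0.0325, range 0.00149 to 0.456) without transgenic replicate 2. Both of its other probe sets fell with all arrays.

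Another 3 transporters passed without transgenic replicate 2 and not with all arrays. Slc2a6, which encodes GLUT6, read 171.4, 80.5 and 257.5 in transgenic pads and 34.2, 41 and 19.2 in wild type pads, with 1.87 (adjusted p = 0.0721) for all arrays, and it rose by 2.28 without transgenic replicate 2 (adjusted p = 0.000868, range 0.000868 to 0.282). Slc2a12 (GLUT12) had −1.10 (adjusted p = 0.0895) and fell by 1.18 without it (adjusted p = 0.0196, range 0.0188 to 0.328). Slc2a13, the proton myo-inositol transporter of the family, had −0.74 (adjusted p = 0.209) and fell by 0.93 without it (adjusted p = 0.0127, range 0.00743 to 0.546).

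Among 5 carriers of lactate and pyruvate, 1 fell and 0 rose with and without transgenic replicate 2, where 1.54% and 7.33% of all genes fell. Slc16a7, which encodes the monocarboxylate carrier MCT2, read 41.7, 84.1 and 50.4 in transgenic pads and 326.6, 310.6 and 394 in wild type pads. It fell by 2.30 (SE 0.28, adjusted p = 0.00975), kept without transgenic replicate 1 or 2 and lost without transgenic replicate 3 (0.054) and wild type replicate 1, 2 or 3 (0.0703, 0.0711 and 0.0704), with a range of 7.36e-05 to 0.0711 over the alternatives. Of 11 regulators none passed with all arrays (0 by limma). At an unadjusted p under 0.05, 1 was higher, as were 1238 of all 13112 tested genes. Hif1a, the oxygen-sensitive factor that drives many glycolytic genes, read 1739.3, 3412.9 and 2307.9 in transgenic pads and 1310.2, 966.6 and 989 in wild type pads. Its log2 fold change was 1.14 (adjusted p = 0.113), and it rose by 0.88 (adjusted p = 0.0195, range 0.0046 to 0.42) without transgenic replicate 2.

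**Figure D4:**
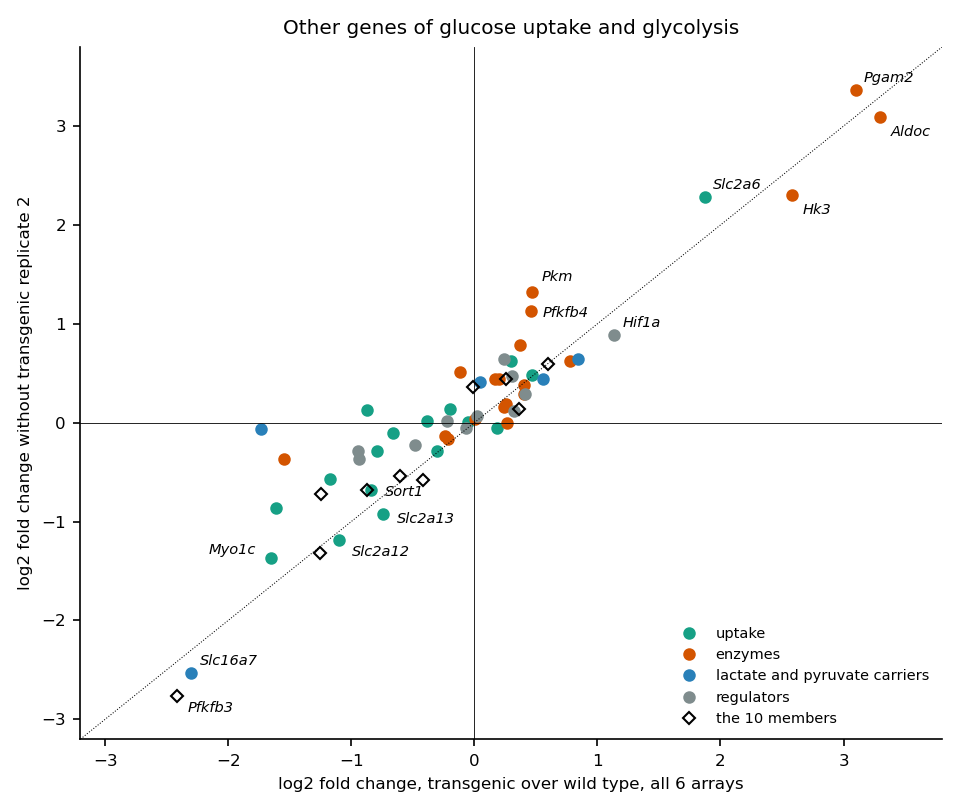
Log2 fold change (transgenic over wild type) of 52 further genes of uptake, glycolysis, lactate and pyruvate carriage and regulation, and of the 10 members (open diamonds), with all 6 arrays (x) and without transgenic replicate 2 (y); the dotted line marks equal values. Aldoc and Pgam2 lie above 3 on both axes, Pfkfb3 and Slc16a7 below −2.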

How the data were processed

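The authors deposited MAS5 signals, a linear intensity of each probe set on each array, as the submitters' processing notes name the tool. MAS5 version and scaling target: not given in the sources used here. There are 0 columns of other samples. Probe sets were named through the platform annotation given, from those with 1 symbol (34958 of 45101; 932 have several and 9211 none).

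The log2 of signal + 16 was fitted in R 4.3.3 with limma 3.58.1 (lmFit, eBayes with trend, two-sided) after leaving out 64 control probe sets and the dimmest 40%. This left 27023 probe sets, over which p was adjusted by Benjamini-Hochberg, with a threshold of 0.05. Fold changes on this scale understate changes of dim probe sets. A gene is represented by its brightest tested probe set. Pairs of genes were compared with exact permutation tests in scipy 1.17.1. Each array is a separate mouse. Replicate numbers carry no stated litter, so no block was used. Deviations from the group means of same-numbered arrays correlated at −0.37, 0.09 and −0.05. This cannot decide whether they are litter pairs, since transgenic replicate 2, with its signs of shortened RNA, enters the transgenic mean.

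The 10 members, the further gene lists and the tests were chosen with earlier results of these data known. Named were all members, listed genes past the threshold and, up to 12, those with the largest change past it without transgenic replicate 2. Alternatives were other offsets and filters, normalization, eBayes and weight settings, a replicate block and each array left out, and, chosen after seeing the data, values within the arrays of low and high Pcx ratio (under or over 10). Leaving out an array kept the same 27023 probe sets.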

Additional observations from a re-analysis of the deposited data

How the results depend on the processing

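The 802 probe sets past the threshold became 3359 with array weights, 341 with the replicate block, 4976 without transgenic replicate 2 and with quantile normalization, and 141 to 3565 with 1 array left out. Of the 25 member probe sets the 2 calls became 1 with no filter on dim probe sets, 0 with arrays centred on their median, 9 with array weights, 0 with the replicate block (Pfkfb3 1416432_at 0.0614, Slc2a3 1455898_x_at 0.134), 15 without transgenic replicate 2 and with quantile normalization (9 higher, 6 lower), and 0 to 10 with 1 array left out. The 5 calls among the 52 further genes became 3 with no filter, 14 with array weights, 22 without transgenic replicate 2 and with quantile normalization, and 2 to 13 with 1 array left out, and were 4 with the block. The 4 pairs apart became 7 without transgenic replicate 2 and with quantile normalization, and 4 to 7 over the arrays left out. Quantile normalization moved the median log2 fold change of all probe sets to 0.03, against −0.09. The causes of these shifts were not tested.

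Sign changes were in values that had not passed the test with all arrays. With array weights, and without transgenic replicate 2 plus quantile normalization, the log2 fold changes were 0.14 and 0.17 for Slc2a1 1426600_at, 0.55 and 0.77 for Hk1 1420901_a_at, 0.31 and 0.57 for Pfkp 1430634_a_at, 0.49 and 0.48 for Aldoa 1433604_x_at, and 0.37 and 0.31 for Ldhb 1416183_a_at. With 1 array left out they ran from −0.70 to 0.17, −1.41 to 0.78, −1.60 to 0.59, −0.97 to 0.58 and −0.23 to 0.36 for the same probe sets in that order. Within the arrays of low Pcx ratio they were 0.21 for Slc2a1, 0.66 for Hk1, 0.50 for Aldoa and 0.46 for Ldhb. Ldhb 1416183_a_at had 0.11 with median centring, and the mean over probe sets was 0.44 for Ldhb and −2.06e-05 for Hk1. Pkm ran from −0.061 to 1.33 and Slc2a3 minus Slc2a4 from −0.60 to 0.40 with 1 array left out. Slc2a3 minus Slc2a4 had 0.079 with an offset of 64 and 0.038 with quantile normalization.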
